A study of Homo sapiens with 24 samples.

Results

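The 38 genes described here encode the machinery that degrades cytoplasmic and nuclear RNA in human cells. They were chosen by name, 38 of the 63299 genes in the deposited table. They hold the 9 core subunits of the RNA exosome (EXOSC1 to EXOSC9), its 3 nucleases (EXOSC10, DIS3 and DIS3L), the 4 deadenylases of the CCR4-NOT complex (CNOT6, CNOT6L, CNOT7 and CNOT8), 7 other CCR4-NOT subunits (CNOT1, CNOT2, CNOT3, CNOT4, CNOT9, CNOT10 and CNOT11), the deadenylase pair PAN2 and PAN3, 5 decapping genes (DCP1A, DCP1B, DCP2, EDC3 and EDC4), the exonucleases XRN1 and XRN2, and 6 genes of nonsense-mediated decay (UPF1, UPF2, UPF3B, SMG1, SMG5 and SMG6). All 38 passed the filter on low counts that left 20240 genes to test.

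Decay of a messenger RNA usually begins at its tail. PAN2-PAN3 and then CCR4-NOT shorten the poly(A) tail, after which either the cap is removed by DCP2 with DCP1 and the body is degraded from the 5′ end by XRN1, or the body is degraded from the 3′ end by the exosome. XRN2 and EXOSC10 work mainly in the nucleus, and nonsense-mediated decay removes transcripts with premature stop codons through UPF1, the kinase SMG1 and the factors SMG5 and SMG6.

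The study measured total RNA of A2780, a platinum-sensitive ovarian cancer cell line, and of A2780cis, its isogenic platinum-resistant derivative, which was kept resistant by adding cisplatin to its medium at intervals. Flasks of each line stood for 6 h or 12 h in standard medium (control) or in medium with 1 µM 5-FdU-ECyd, a conjugate of the antimetabolites 2′-deoxy-5-fluorouridine and 3′-C-ethynylcytidine. Each of the 8 groups (2 lines, with and without the drug, at 2 times) held 3 libraries, 24 in all, and each line was 1 cell line. The study calls the triplicates biological replicates. Neither the labels nor its methods say that they came from separate cultures, so the p-values measure the spread between these samples, which may be technical.

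The libraries held between 11077368 and 21901406 counts, and the smallest count of any of the 38 genes in a library was 49, for EXOSC5. Of the marker genes checked against the label of the cells, KRT7 had no count, PAX8, WT1 and MUC16 had at most 3 counts in any library, and so had PTPRC, PECAM1 and ALB, markers of leukocytes, endothelium and hepatocytes. The epithelial keratin KRT18 lay at a mean of 1.11 to 2.89 CPM (counts scaled to a common library size) in the A2780 groups and at 23.4 to 26.5 CPM in the A2780cis groups, and the fibroblast collagen COL1A1 at 5.07 to 14.7 CPM and 0.413 to 2.69 CPM. The summed epithelial list ran from 2.09 to 6.38 CPM in A2780 libraries and from 25.1 to 35.8 CPM in A2780cis libraries. Most of it came from KRT18 in A2780cis, but not in every A2780 library. In the A2780 controls of 6 h KRT18 was as low as 0.718 CPM, where the sums ran from 2.09 to 3.22 CPM. EPCAM, another marker on that list, went the other way, with means of 0.666 to 1.35 CPM in A2780 groups and 0.188 to 0.830 CPM in A2780cis groups (log2 fold change between untreated lines -1.05 at 6 h, which did not pass, and -2.27 at 12 h, which did). The part of these markers in the differences between the lines was not tested.

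Among the 38 genes, levels per kilobase of the canonical transcript differed widely. In the untreated A2780 cells at 12 h the exosome subunits EXOSC8 and EXOSC9 stood highest, at means of 101 and 84.2 CPM per kilobase, followed by CNOT1 and XRN2 at 62.4 and 62.1. The lowest were the deadenylase CNOT6L at 3.22, PAN2 at 3.84 and XRN1 at 5.05 CPM per kilobase. Reads were counted on all exons of a gene, and EXOSC8 has 13092 exonic bases against 1166 in its canonical transcript. EXOSC8 also shares 16.3% of its exonic bases with SUPT20H on the other strand. Ranks per kilobase therefore depend on the length used and on shared reads. All other levels below are CPM, not per length, after scaling by the trimmed mean of M-values (TMM). They are shares of a library. In such bulk samples fewer cells of a type and less RNA per cell cannot be told apart.

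After 12 h of 5-FdU-ECyd most of the decay genes that changed were lower. CNOT1, the scaffold of the CCR4-NOT complex, fell most, and both XRN exonucleases and all 3 exosome nucleases fell in both lines. DCP1B, a decapping co-activator, rose in both lines, and UPF3B, an exon junction adaptor of nonsense-mediated decay, rose in A2780. In A2780, 19 of the 38 genes passed an adjusted p of 0.05 in edgeR's quasi-likelihood test, 4 higher and 15 lower, against 54.8% of all genes tested (28.6% higher and 26.1% lower). In A2780cis, 29 passed, 3 higher and 26 lower, against 59.9% of all genes tested (31.0% higher and 28.9% lower). All 38 are protein-coding. Of the 13881 protein-coding genes tested, 27.8% were higher and 30.8% lower in A2780, and 27.9% and 34.7% in A2780cis. The median log2 fold change (log2 FC) of the 38 genes was -0.21 in A2780 and -0.45 in A2780cis, where the medians over all genes were 0.02 and 0.04.

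The sign of the median in A2780 depended on the scaling, while the calls stayed mostly lower. With library size in place of TMM the median of all genes in A2780 moved from 0.02 to 0.24, and that of the decay genes from -0.21 to 0.01, so that the decay genes lay below all genes under both. The calls were then 8 higher and 13 lower in A2780, and 6 higher and 23 lower in A2780cis. When each library in turn was left out, 16 of the 19 calls in A2780 and 25 of the 29 in A2780cis held every time.

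**Figure D1:**
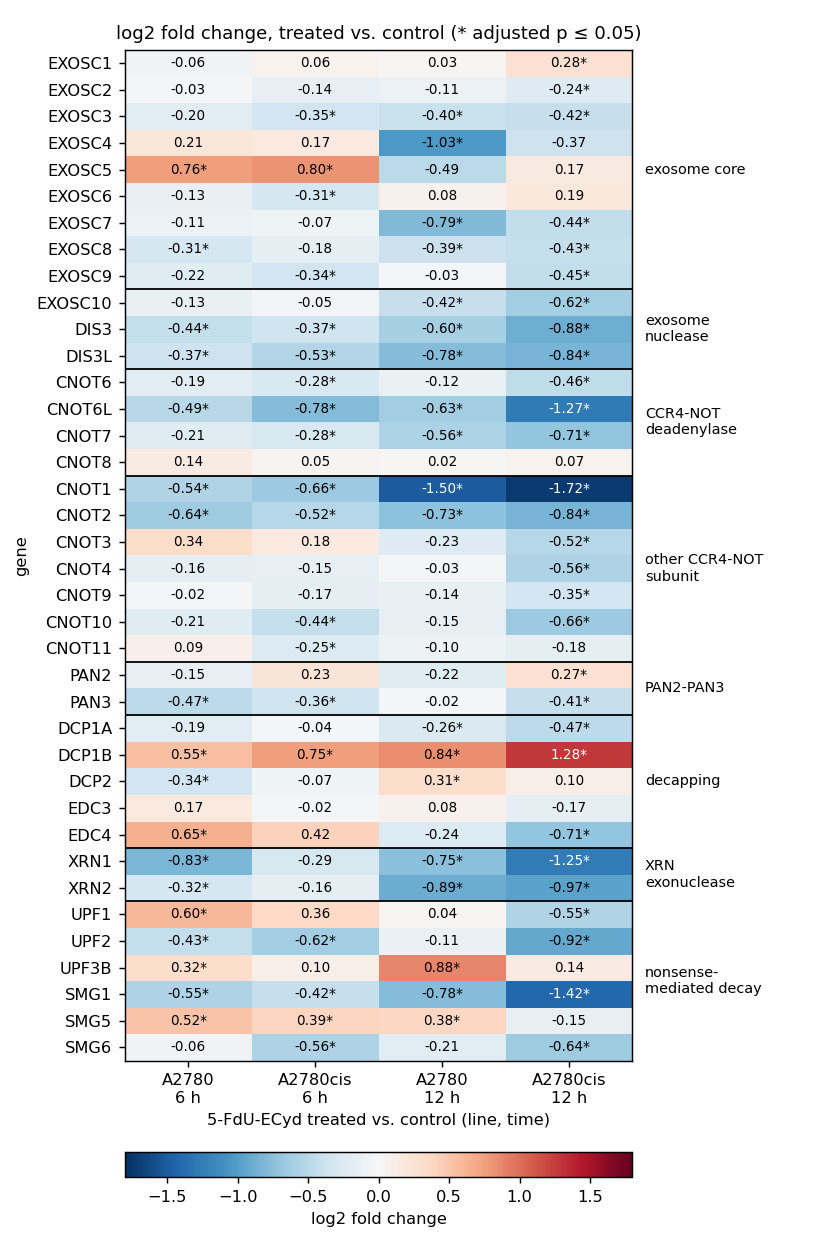
Log2 fold change of the 38 decay genes (rows, grouped by role) in treated against control cells, for each line and time (columns), with red for higher, blue for lower and a star for an adjusted p of at most 0.05. The deepest blue cells are those of CNOT1 at 12 h, -1.50 in A2780 and -1.72 in A2780cis, and the deepest red is DCP1B in A2780cis at 12 h, 1.28.

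Of the CCR4-NOT subunits that are not deadenylases, 2 of 7 fell in A2780 at 12 h and 6 of 7 in A2780cis, and none rose in either, beside 26.1% and 28.9% of all genes that fell. In A2780 28.6% of these subunits passed in either direction, below the 54.8% of all genes. CNOT1 lay at 513, 552 and 509 CPM in the A2780 controls and at 187, 188 and 183 CPM in the treated cells. In A2780cis it lay at 393, 414 and 399 CPM in the controls and at 125, 129 and 112 CPM after treatment. Control and treated libraries were far apart in both lines. The log2 FC was -1.50 (SE 0.11, adjusted p = 1.57e-11 by edgeR) in A2780 and -1.72 (SE 0.11, adjusted p = 1.2e-12) in A2780cis, and the difference between the lines was -0.22 with an adjusted p of 0.299. At 12.5% of its exonic bases CNOT1 overlaps SETD6 on the other strand, and whether the authors counted by strand is not given in the sources used here.

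CNOT2, which binds the C-terminal part of CNOT1 together with CNOT3, also fell in both lines. It lay at 89.2, 87.7 and 75.2 CPM in A2780 controls and at 50.6, 50.8 and 50.1 CPM in treated cells, and at 61.5, 53.9 and 49.7 CPM against 33.9, 28.2 and 30.4 CPM in A2780cis. The groups did not overlap, with log2 FC of -0.73 (SE 0.11) and -0.84 (SE 0.11). CNOT3, the ubiquitin ligase CNOT4, CNOT9 and CNOT10 passed only the test in A2780cis, at -0.52, -0.56, -0.35 and -0.66. CNOT11 passed in neither line, and the 5 subunits that did not pass in A2780 lay between -0.23 and -0.03.

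CNOT10 was among the genes whose response differed between the lines. Its levels in A2780 were 53.7, 56.6 and 52.6 CPM in controls and 47.9, 49.2 and 50.3 CPM in treated cells. In A2780cis they were 71.3, 60.3 and 61.5 CPM in controls and 42.7, 34.5 and 45.6 CPM in treated cells. The A2780cis groups thus stood well apart, while those of A2780 were separated by a few CPM. The difference in log2 FC was -0.51 (SE 0.14, adjusted p = 0.00957).

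The deadenylases themselves come in 2 paralog pairs, and within each pair the members differed. CNOT6L, a poly(A) nuclease of the exonuclease-endonuclease-phosphatase fold, fell from 27.9, 29.2 and 27.7 CPM to 20.0, 18.0 and 16.9 CPM in A2780 and from 37.0, 41.3 and 33.5 CPM to 18.3, 14.8 and 13.3 CPM in A2780cis. Its log2 FC was -0.63 (SE 0.13) and -1.27 (SE 0.13), against -0.12 and -0.46 for its paralog CNOT6, which passed the test in A2780cis only. CNOT7, a nuclease of the DEDD type that is exclusive with CNOT8 in the complex, fell from 193, 188 and 179 CPM to 145, 118 and 117 CPM in A2780. In A2780cis CNOT7 fell from 188, 169 and 152 CPM to 123, 95.0 and 91.8 CPM, so that neither line's groups overlapped. The log2 FC of CNOT7 was -0.56 in A2780 and -0.71 in A2780cis (SE 0.11 in both), and that of CNOT8 was 0.02 and 0.07, neither past the threshold. The difference between paralogs was not itself tested. CNOT7 shares 18.8% of its exonic bases with an RNA gene on the other strand.

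PAN2 and PAN3 changed little. PAN2, the catalytic subunit, was at 18.4, 16.2 and 17.5 CPM in A2780 controls and 15.2, 15.8 and 13.7 CPM in treated cells, a log2 FC of -0.22 that did not pass. In A2780cis it was at 11.0, 9.94 and 11.4 CPM in controls and 11.4, 14.0 and 13.8 CPM in treated cells, 0.27 higher on the log2 scale (adjusted p = 0.0361). The 2 groups meet at their nearest values, and the call was lost without any of 4 of the 6 libraries (control replicates 1 and 2, treated replicates 2 and 3), with values between 0.20 and 0.28. With the trend of each library on the GC content of the transcript removed, as described further on, PAN2 in A2780cis was at 0.16 (adjusted p = 0.146). PAN2 shares 19.5% of its exonic bases with an RNA gene on the other strand. PAN3, the RNA-binding adaptor, did not pass in A2780 (39.4, 40.1 and 37.3 against 40.8, 37.6 and 36.9 CPM). In A2780cis PAN3 fell from 15.3, 12.7 and 14.1 CPM to 10.4, 12.1 and 9.23 CPM, a log2 FC of -0.41 (SE 0.11, adjusted p = 0.00293).

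In the exosome core, 4 of 9 subunits fell in A2780 (EXOSC3, EXOSC4, EXOSC7 and EXOSC8) and none rose, and in A2780cis 5 fell (EXOSC2, EXOSC3, EXOSC7, EXOSC8 and EXOSC9) and EXOSC1 rose. Of all genes 54.8% and 59.9% passed in the 2 lines, so the count of core subunits called in either direction was below the background in A2780 and close to it in A2780cis, while 26.1% and 28.9% of all genes fell. EXOSC4, a subunit of the hexameric ring, fell from 21.8, 19.3 and 22.8 CPM to 7.57, 11.6 and 11.9 CPM in A2780, a log2 FC of -1.03 (SE 0.22, adjusted p = 0.000307). In A2780cis it lay at 36.0, 39.8 and 50.8 CPM in controls and at 30.3, 35.9 and 31.4 CPM in treated cells, -0.37 on the log2 scale, which did not pass. The highest treated A2780cis library lay just below the lowest control. EXOSC4 shares 61.7% of its exonic bases with other genes, 56.7% with a read-through gene on its own strand, so its counts are uncertain.

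EXOSC7, another ring subunit, fell in both lines, from 62.7, 62.1 and 57.0 CPM to 37.6, 34.4 and 33.4 CPM in A2780 and from 64.9, 58.9 and 57.5 CPM to 46.5, 35.7 and 51.4 CPM in A2780cis. The log2 FC was -0.79 (SE 0.12) and -0.44 (SE 0.12). EXOSC7 shares 13.6% of its exonic bases with CLEC3B on its own strand. EXOSC3, a cap subunit that binds RNA, changed by -0.40 and -0.42, and EXOSC8 by -0.39 and -0.43. The calls of EXOSC1 (0.28, adjusted p = 0.0469) and EXOSC2 (-0.24, adjusted p = 0.018) in A2780cis were lost without 4 and 2 of the 6 libraries, respectively. For EXOSC1 these were control replicates 2 and 3 and treated replicates 1 and 3 (0.11 to 0.26), and for EXOSC2 control replicate 1 and treated replicate 2 (-0.20 to -0.18).

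All 3 nucleases of the exosome fell in both lines, where 26.1% of all genes fell in A2780 and 28.9% in A2780cis. DIS3, the main processive nuclease, lay at 140, 136 and 104 CPM in A2780 controls and at 93.9, 79.1 and 78.0 CPM in treated cells, and at 63.4, 52.4 and 55.2 CPM against 35.2, 29.4 and 28.5 CPM in A2780cis. DIS3L, its cytoplasmic paralog, lay at 48.3, 46.9 and 46.5 CPM against 29.4, 26.8 and 26.4 CPM in A2780, and at 63.1, 68.4 and 69.0 CPM against 39.8, 36.3 and 36.2 CPM in A2780cis. No treated library reached a control library for either gene. The log2 FC of DIS3 was -0.60 (SE 0.11) and -0.88 (SE 0.12), that of DIS3L -0.78 (SE 0.10) and -0.84 (SE 0.10), and that of EXOSC10, the nuclear distributive nuclease, -0.42 (SE 0.07) and -0.62 (SE 0.07). The largest adjusted p among these values was 7.91e-05, for DIS3 in A2780. EXOSC10 shares 39.1% of its exonic bases with other genes, mostly an RNA gene on the other strand.

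The decapping genes moved in both directions, and the paralogs DCP1A and DCP1B, both activators of the decapping enzyme DCP2, moved apart. To let the start regions of the genes that rose be read beside the one that fell, the 250 bases before the RefSeq transcription start of DCP1A, DCP1B and UPF3B follow, 5′ to 3′ on the gene's strand, from GRCh38.p14. They lie at chr3:53347544-53347793, chr12:2004458-2004707 and chrX:119852964-119853213, all on the minus strand, and reach slightly into the longest gene model of GENCODE. Capitals mark the GC box core GGGCGG, the CCAAT box and the ETS-type motif CCGGAAG on either strand.
DCP1A: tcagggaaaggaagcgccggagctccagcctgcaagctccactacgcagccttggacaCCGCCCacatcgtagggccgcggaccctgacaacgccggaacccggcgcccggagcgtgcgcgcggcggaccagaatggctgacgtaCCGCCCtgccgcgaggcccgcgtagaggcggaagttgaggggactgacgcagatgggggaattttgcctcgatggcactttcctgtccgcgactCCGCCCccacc
DCP1B: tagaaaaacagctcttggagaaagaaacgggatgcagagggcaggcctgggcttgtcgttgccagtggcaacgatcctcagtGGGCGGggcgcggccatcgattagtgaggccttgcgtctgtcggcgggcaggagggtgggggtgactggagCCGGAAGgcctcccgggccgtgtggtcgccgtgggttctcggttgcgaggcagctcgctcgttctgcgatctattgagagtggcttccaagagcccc
UPF3B: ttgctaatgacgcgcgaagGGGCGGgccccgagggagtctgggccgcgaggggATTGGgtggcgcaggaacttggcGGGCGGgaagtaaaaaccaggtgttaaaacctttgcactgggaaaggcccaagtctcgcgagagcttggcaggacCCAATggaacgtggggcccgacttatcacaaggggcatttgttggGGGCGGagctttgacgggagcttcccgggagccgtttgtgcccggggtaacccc

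The 3 windows are rich in GC (68.4%, 63.6% and 62.8%). DCP1A holds 3 copies of GGGCGG, DCP1B 1 copy and 1 CCGGAAG, and UPF3B 3 copies and 2 CCAAT boxes. Of the 38 genes, 34 had such a window in the table, where the first entry of each gene was used. GGGCGG occurred in 26 of the 34 (76.5%) against 42.3% of 27305 windows of all genes, CCAAT in 16 (47.1%) against 33.0%, CCGGAAG in 4 (11.8%) against 8.82% and TATAAA in 1, EXOSC8 (2.94%) against 11.1%. TGAGTCA was found in 1 window (2.94%) against 4.16%, a half-site of the p53 element in 1, UPF2 (2.94%) against 5.53%, and the NRF1 palindrome in none against 1.13%. The median GC content was 63.6% in the 34 windows and 58% in all. These matches are letters in a window and describe no binding.

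DCP1B rose from 17.0, 15.8 and 15.2 CPM to 26.8, 30.0 and 29.0 CPM in A2780 and from 8.04, 6.96 and 7.23 CPM to 18.0, 17.6 and 18.4 CPM in A2780cis. Every treated library exceeded every control of its line. The log2 FC was 0.84 (SE 0.10, adjusted p = 9.74e-08) and 1.28 (SE 0.11, adjusted p = 1.7e-10), and at 6 h already 0.55 and 0.75. DCP1A went the other way, from 71.6, 69.9 and 73.8 CPM to 61.6, 59.4 and 59.4 CPM in A2780 and from 49.1, 51.4 and 48.1 CPM to 39.0, 37.7 and 30.8 CPM in A2780cis. Its log2 FC was -0.26 (SE 0.09, adjusted p = 0.0224) and -0.47 (SE 0.10, adjusted p = 0.000153). The call of DCP1A in A2780 was lost without control replicate 3 or treated replicate 2 or 3 (-0.25 to -0.24).

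DCP2, the decapping enzyme, was at 107, 97.2 and 97.9 CPM in A2780 controls and at 137, 114 and 124 CPM in treated cells, a rise of 0.31 (SE 0.11, adjusted p = 0.0186) that was lost without control replicate 2 or 3 or treated replicate 1 (0.23 to 0.29). In A2780cis it did not pass, at 57.5, 47.9 and 44.6 against 60.9, 56.0 and 44.4 CPM. EDC4, the scaffold that links DCP1 and DCP2, overlapped between groups in A2780 (74.1, 78.0 and 84.4 against 51.8, 72.7 and 74.7 CPM). In A2780cis EDC4 fell from 72.5, 93.8 and 107 CPM to 50.1, 66.0 and 51.3 CPM, a log2 FC of -0.71 (SE 0.16, adjusted p = 0.000491). EDC4 shares 21.3% of its exonic bases with an RNA gene on its own strand, so its counts are uncertain. EDC3 passed in neither line.

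Both exonucleases that degrade RNA from the 5′ end fell, beside 26.1% of all genes in A2780 and 28.9% in A2780cis. XRN1, the cytoplasmic enzyme, went from 57.4, 49.9 and 45.5 CPM to 30.5, 29.2 and 30.8 CPM in A2780 and from 44.5, 44.3 and 38.1 CPM to 22.0, 18.9 and 12.2 CPM in A2780cis. XRN2, which acts in transcription termination, went from 221, 216 and 198 CPM to 121, 114 and 109 CPM in A2780 and from 208, 189 and 179 CPM to 105, 90.3 and 98.7 CPM in A2780cis. The groups of both genes were separate in both lines. The log2 FC of XRN1 was -0.75 (SE 0.15) and -1.25 (SE 0.15), and that of XRN2 was -0.89 (SE 0.09) and -0.97 (SE 0.09), with adjusted p of 4.08e-09 and 6.56e-10 for XRN2 by edgeR.

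**Figure D2:**
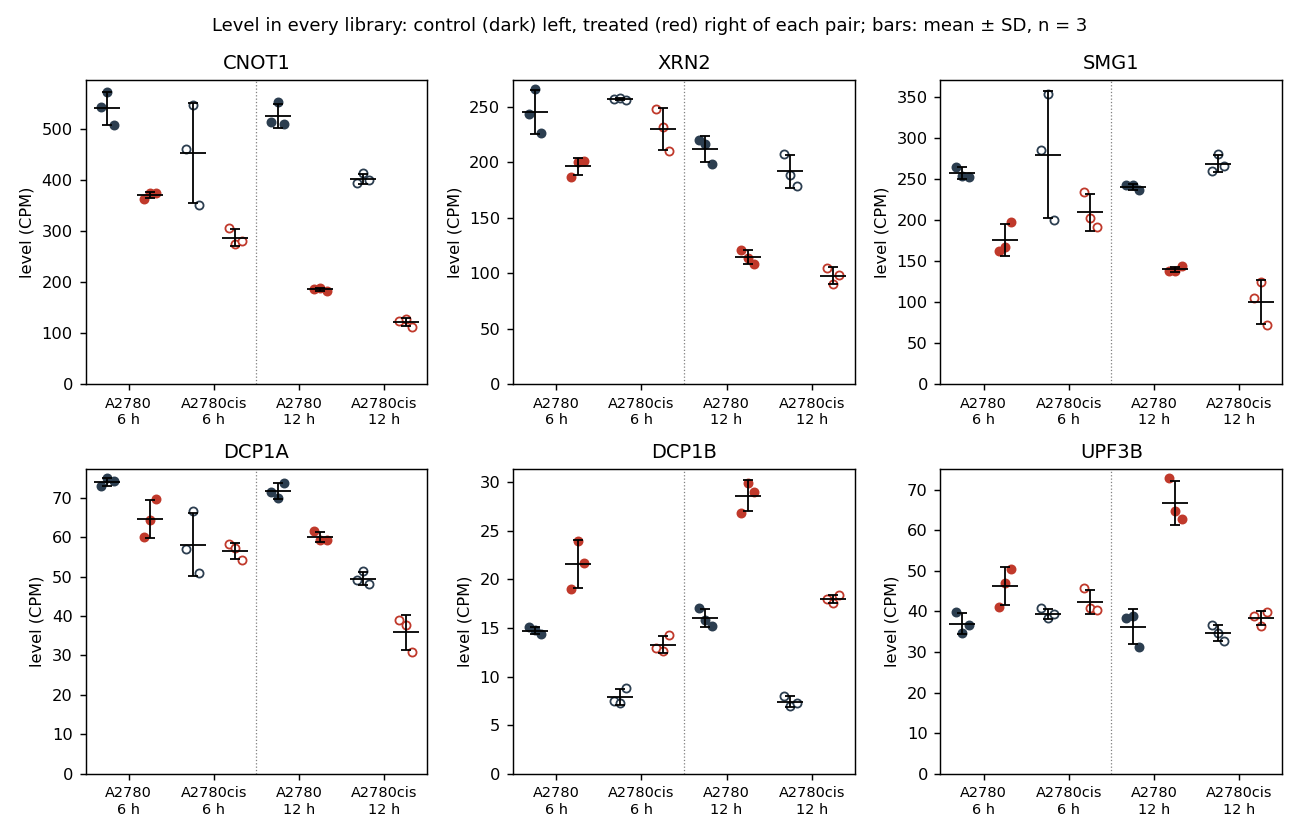
Level in CPM of 6 decay genes in each of the 24 libraries, by line and time, with controls left and treated cells right in each pair (filled points A2780, open points A2780cis, bars mean ± SD, n = 3, axes from 0). CNOT1, XRN2 and SMG1 are lower after treatment at 12 h in both lines, DCP1B is higher in every treated library than in its own controls, and UPF3B stands apart in the treated A2780 cells at 12 h, at 62.8 to 73.0 CPM.

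The calls among the genes of nonsense-mediated decay were not the same in both lines. In A2780, UPF3B and SMG5 rose and SMG1 fell, while in A2780cis none rose and UPF1, UPF2, SMG1 and SMG6 fell. That is 50% and 66.7% of the 6 genes, beside 54.8% and 59.9% of all genes that passed. The test of the difference between the lines passed for UPF2, UPF3B, SMG1 and SMG5, and not for UPF1 (-0.59, adjusted p = 0.0776) or SMG6 (-0.43, adjusted p = 0.0871). It thus passed for 66.7% of the 6 genes and for 23.7% of all genes. SMG1 and SMG5 lost this call in 8 and 5 of the 12 fits that left out 1 library. UPF3B, which links UPF2 to the exon junction complex, was at 38.5, 38.9 and 31.3 CPM in A2780 controls and at 73.0, 64.6 and 62.8 CPM in treated cells, a log2 FC of 0.88 (SE 0.10, adjusted p = 4.64e-08). In A2780cis it was at 36.7, 34.7 and 32.8 CPM and at 38.8, 36.5 and 39.8 CPM, 0.14 on the log2 scale (adjusted p = 0.23). The difference between the lines was -0.74 (SE 0.14, adjusted p = 0.000561). With the GC trend of each library removed UPF3B passed in A2780cis as well, at 0.29.

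UPF2, the bridge between UPF1 and UPF3B, gave the difference between the lines with the smallest p. It was at 94.8, 88.2 and 71.2 CPM in A2780 controls and at 84.6, 74.8 and 75.3 CPM in treated cells, and these groups overlapped. In A2780cis it fell from 113, 94.2 and 92.6 CPM to 52.5, 54.7 and 51.5 CPM, a log2 FC of -0.92 (SE 0.11) against -0.11 in A2780, and the difference was -0.80 (SE 0.15, adjusted p = 0.00053).

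SMG1, the kinase that phosphorylates UPF1, fell in both lines, from 243, 242 and 236 CPM to 138, 138 and 143 CPM in A2780 and from 260, 280 and 265 CPM to 106, 124 and 71.7 CPM in A2780cis. The log2 FC was -0.78 (SE 0.15) and -1.42 (SE 0.16). The library at 71.7 CPM was the lowest of all 12 libraries of 12 h. SMG5, which recruits decay enzymes, rose in A2780 from 121, 128 and 142 CPM to 149, 179 and 178 CPM (0.38, adjusted p = 0.00854), a call that was lost without control replicate 1 (0.30). In A2780cis it was at -0.15 and did not pass. UPF1, the central helicase, was at 0.04 in A2780 and fell by 0.55 in A2780cis (adjusted p = 0.00766), where its call was lost without control replicate 3 (-0.42). SMG6, the endonuclease, fell by 0.64 in A2780cis only by its own test, at -0.21 in A2780. SMG6 shares 24.7% of its exonic bases with other genes, mostly HIC1 on the other strand. SMG1 is a gene with near-identical copies. Its count was not a whole number in 87.5% of libraries, because reads with several matches were shared out. The same held in 95.8% of libraries for CNOT7 and in 91.7% for EXOSC6. How much of these counts came from such reads cannot be told from these values.

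The test of the difference between the lines passed for 10 of the 38 genes at 12 h (23.7% of all genes), 8 with a more negative response in A2780cis (14.0% of all genes) and 2 with a more positive one (9.70%). Besides UPF2, UPF3B and CNOT10, which passed whichever library was left out, these were EXOSC9 (-0.41), CNOT6L (-0.64), CNOT4 (-0.53), PAN2 (0.49), DCP1B (0.44), SMG1 (-0.64) and SMG5 (-0.53). Each of these 7 lost its call in 2 to 8 of the 12 fits that left out 1 library. The number of calls was 6 without replicate 1 of the A2780 controls, 5 without replicate 1 and 6 without replicate 3 of the treated A2780 cells, and 5 without replicate 2 and 6 without replicate 3 of the A2780cis controls. With library size alone it was 0 higher and 15 lower. The median difference of the 38 genes was -0.21, and -0.04 over all genes.

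**Figure D3:**
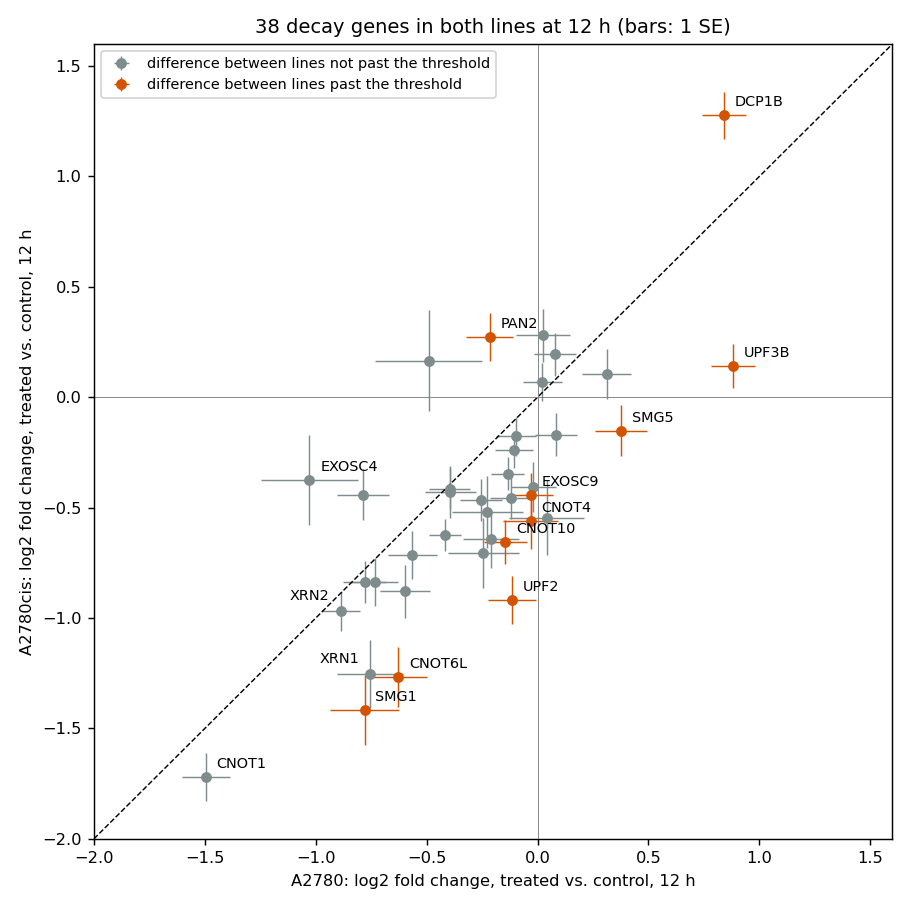
Log2 fold change of each of the 38 genes after 12 h of treatment in A2780 (horizontal) and A2780cis (vertical), with bars of 1 SE and the dashed line of equal response. Orange points are the 10 genes whose difference between the lines passed the test, among them UPF2 and UPF3B below the line and DCP1B and PAN2 above it.

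Longer genes with more exons among the 38 tended to have lower values in A2780cis at 12 h. Across the 38 genes Spearman's rho of the log2 FC was -0.63 with the number of exons of the canonical transcript and -0.58 with gene length in A2780cis, and -0.26 and -0.19 in A2780. Over the 13881 protein-coding genes tested the same values were -0.32 and -0.38 in A2780cis, and -0.21 and -0.23 in A2780. At 6 h rho with gene length was -0.58 in A2780 and -0.57 in A2780cis across the 38 genes, and -0.35 and -0.40 over protein-coding genes. The genes share libraries and are not independent, and gene length, exon number and GC content go together, so these values are descriptions. The 38 genes had a median of 12 exons and a gene length of 38477 bases, against 9 exons and 33139 bases over all.

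At 6 h CNOT1, CNOT2, the nucleases DIS3 and DIS3L and UPF2 were already lower in both lines, and DCP1B was higher. In A2780, 18 of the 38 passed, 6 higher and 12 lower, against 29.4% of all genes (16.0% higher and 13.4% lower). In A2780cis 19 passed, 3 higher and 16 lower, against 30.7% (14.4% higher and 16.3% lower). The medians were -0.15 and -0.17, with 0.04 and 0.00 over all genes. CNOT1 had fallen by 0.54 (adjusted p = 0.000393) and 0.66 (adjusted p = 3.89e-05), from 542, 572 and 507 CPM to 363, 374 and 375 CPM in A2780 and from 460, 547 and 352 CPM to 306, 274 and 280 CPM in A2780cis. XRN1 had the lowest value in A2780, -0.83 (SE 0.15, adjusted p = 0.000177), and did not pass in A2780cis (-0.29). CNOT6L, SMG1 and PAN3 also passed as lower in both lines, and SMG5 and EXOSC5 as higher in both. Many of the 6 h calls were lost in some of the fits that left out 1 library. In A2780 11 of the 18 held in every such fit, and in A2780cis 8 of the 19. Among those lost was DIS3, without 1 of the 6 libraries in A2780 (-0.35) and without 2 of the 6 in A2780cis (-0.34 to -0.30).

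In A2780 the call of CNOT6L was lost without control replicate 1 (-0.35) and that of EXOSC5 without control replicate 1 or treated replicate 1 or 2 (0.44 to 0.76). In A2780cis SMG1 (-0.40 to -0.22) and PAN3 (-0.36 to -0.30) both lost their calls without control replicate 1 or 2 or treated replicate 2 or 3. EXOSC5 lost its call there without control replicate 2 or treated replicate 2 or 3 (0.56 to 0.75), and SMG5 without replicate 3 of either group (0.31 to 0.35). In A2780cis the count was 12 without control replicate 2, 12 without treated replicate 2 and 8 without treated replicate 3, and 5 higher and 9 lower with library size alone.

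Each 6 h library has to be read beside the GC content of its transcripts. Over 19889 genes with a known canonical transcript, Spearman's rho between GC content and a library's deviation from the mean of all libraries ran from -0.56 to -0.31 in the A2780 controls of 6 h and from -0.32 to 0.12 in the treated ones. In A2780cis at 6 h it ran from -0.32 to -0.26 in controls and from -0.23 to 0.12 in treated cells. At 12 h it ran from -0.07 to 0.16 and from -0.08 to 0.18 in A2780 controls and treated cells, and from 0.13 to 0.41 and from 0.26 to 0.45 in A2780cis. Control and treated libraries thus differed in this respect at 6 h more than at 12 h. Across the 38 genes rho between GC content and the treatment log2 FC at 6 h was 0.74 in A2780 and 0.58 in A2780cis (0.54 and 0.37 over protein-coding genes), and at 12 h 0.09 and 0.34 (0.11 and 0.16).

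The 6 members with the most GC in their transcripts were EXOSC4 (64.0%), CNOT3 (61.5%), EXOSC5 (60.7%), UPF1 (60.4%), EDC4 (59.8%) and SMG5 (57.6%), and 4 of the 6 genes called higher at 6 h in A2780 were among them. EXOSC5 lay at 4.24, 8.52 and 10.3 CPM in the controls and 14.8, 12.8 and 10.8 CPM in treated A2780 cells of 6 h, 0.76 on the log2 scale (adjusted p = 0.0343). EDC4 was at 41.3, 52.7 and 60.0 CPM against 97.0, 74.2 and 69.3 CPM, 0.65 (adjusted p = 0.00433), and UPF1 at 35.5, 49.0 and 54.1 CPM against 83.1, 68.8 and 57.3 CPM, 0.60 (adjusted p = 0.0122). The groups did not overlap, but the nearest libraries of EXOSC5 and of UPF1 lay close together. With 1 library left out the adjusted p of EXOSC5 reached 0.253 (0.44, without control replicate 1), and UPF1 lost its call without control replicate 1 (0.43, adjusted p = 0.105) or treated replicate 1 (0.45, adjusted p = 0.0989). These 3 genes were singled out after their values were seen.

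An alternative fit, chosen after the data were seen, removed the trend of each library on GC content. At 6 h in A2780 it left EXOSC5 at 0.38 (adjusted p = 0.146), UPF1 at 0.21 (adjusted p = 0.171), EDC4 at 0.27 (adjusted p = 0.0409) and SMG5 at 0.23 (adjusted p = 0.0212). In A2780cis EXOSC5 was at 0.47 (adjusted p = 0.0503) and SMG5 at 0.15 (adjusted p = 0.129). CNOT1 was at -0.48 and -0.59 in the 2 lines at 6 h and DCP1B at 0.46 and 0.71, all past the threshold. The call of CNOT6L in A2780 was lost (-0.26, adjusted p = 0.0583), and so was that of SMG1 in A2780cis (-0.32, adjusted p = 0.0954). The fit called 15 and 16 of the 38 genes at 6 h, where it called 27.3% and 32.7% of all genes. At 12 h it called 27 and 36, where it called 61.6% and 65.4% of all genes, and of the members 4 were higher and 23 lower in A2780 and 6 higher and 30 lower in A2780cis.

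No member passed the test of the difference between the lines at 6 h by edgeR, where 3.07% of all genes did. At an unadjusted p under 0.05 there were 4, and DESeq2 called 0. The 3 with the smallest p were CNOT11, SMG6 and XRN1. CNOT11, a subunit that binds the N-terminal part of CNOT1, was at 65.2, 67.6 and 63.2 CPM in A2780 controls and 68.9, 71.4 and 68.2 CPM in treated cells, and at 73.1, 95.7 and 87.2 CPM against 75.5, 71.1 and 68.7 CPM in A2780cis. SMG6 was at 25.8, 31.2 and 30.0 CPM against 28.1, 31.2 and 24.3 CPM in A2780, and at 23.2, 28.0 and 19.6 CPM against 17.2, 14.3 and 16.4 CPM in A2780cis. XRN1 was at 66.0, 64.2 and 61.7 CPM against 32.4, 33.4 and 42.1 CPM in A2780, and at 58.0, 59.7 and 45.1 CPM against 48.2, 45.4 and 39.7 CPM in A2780cis. The differences in log2 FC were -0.34, -0.50 and 0.54, and they could not be told from the spread between libraries.

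The treatment response differed between 6 h and 12 h for 11 members in A2780 and 14 in A2780cis. In A2780 3 were more positive at 12 h (10.7% of all genes) and 8 more negative (13.0%), and in A2780cis 2 were more positive (10.3%) and 12 more negative (13.6%). CNOT1 (-0.95 in A2780 and -1.06 in A2780cis), XRN2 (-0.57 and -0.81), EXOSC10 (-0.29 and -0.57) and EDC4 (-0.89 and -1.13) had the lower value at 12 h in both lines. Of those more positive at 12 h, UPF3B (0.56), DCP2 (0.65) and PAN3 (0.45) were called in A2780, and EXOSC6 (0.51) and DCP1B (0.53) in A2780cis. PAN3 in A2780 was at 45.1, 41.3 and 42.4 CPM against 29.4, 28.6 and 35.2 CPM at 6 h, and its 12 h groups, given above, overlapped. Without replicate 1 of the A2780 controls of 6 h the count in A2780 was 7, and with library size alone it was 6 higher and 6 lower. All 25 calls were also made with the GC trend removed. With each library left out in turn, 7 of the 11 in A2780 and 7 of the 14 in A2780cis held every time. Of the 12 such fits, EXOSC10 in A2780 lost its call in 10 (-0.30 to -0.27), DIS3L in A2780 in 8 (-0.42 to -0.36), PAN3 in A2780 in 5 (0.39 to 0.41), CNOT7 in A2780cis in 9 (-0.46 to -0.35) and CNOT3 in A2780cis in 6 (-0.65 to -0.61).

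Untreated cells of the 2 times also differed. In A2780cis 19 members passed between controls of 12 h and 6 h, 6 higher and 13 lower, against 39.9% of all genes (18.0% higher and 21.9% lower). In A2780 9 passed, 5 higher and 4 lower, against 26.9% (16.6% higher and 10.3% lower). These comparisons use the same 6 h and 12 h controls as the treatment comparisons, so their values are not independent of them. In A2780cis the 6 higher genes were the 6 with the most GC, EXOSC5 (1.28), UPF1 (0.84), EDC4 (0.83), EXOSC4 (0.82), CNOT3 (0.69) and SMG5 (0.47). Across the 38 genes rho between GC content and the log2 FC was 0.81 in A2780 and 0.79 in A2780cis, and over protein-coding genes 0.75 and 0.76.

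With the GC trend removed, no member passed in A2780 and 2 in A2780cis. The relation to GC content held over protein-coding genes too (rho of 0.75 and 0.76). These counts are therefore not read as particular to the 38 genes. In A2780 the count was 1 without replicate 1 and 4 without replicate 2 of the 6 h controls, and 2 without replicate 3 of the 12 h controls. With library size alone the split was 9 higher and 3 lower in A2780, and 7 higher and 5 lower in A2780cis. Time in the labels cannot be told apart from whatever else differed between the flasks and libraries of 6 h and 12 h.

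**Figure D4:**
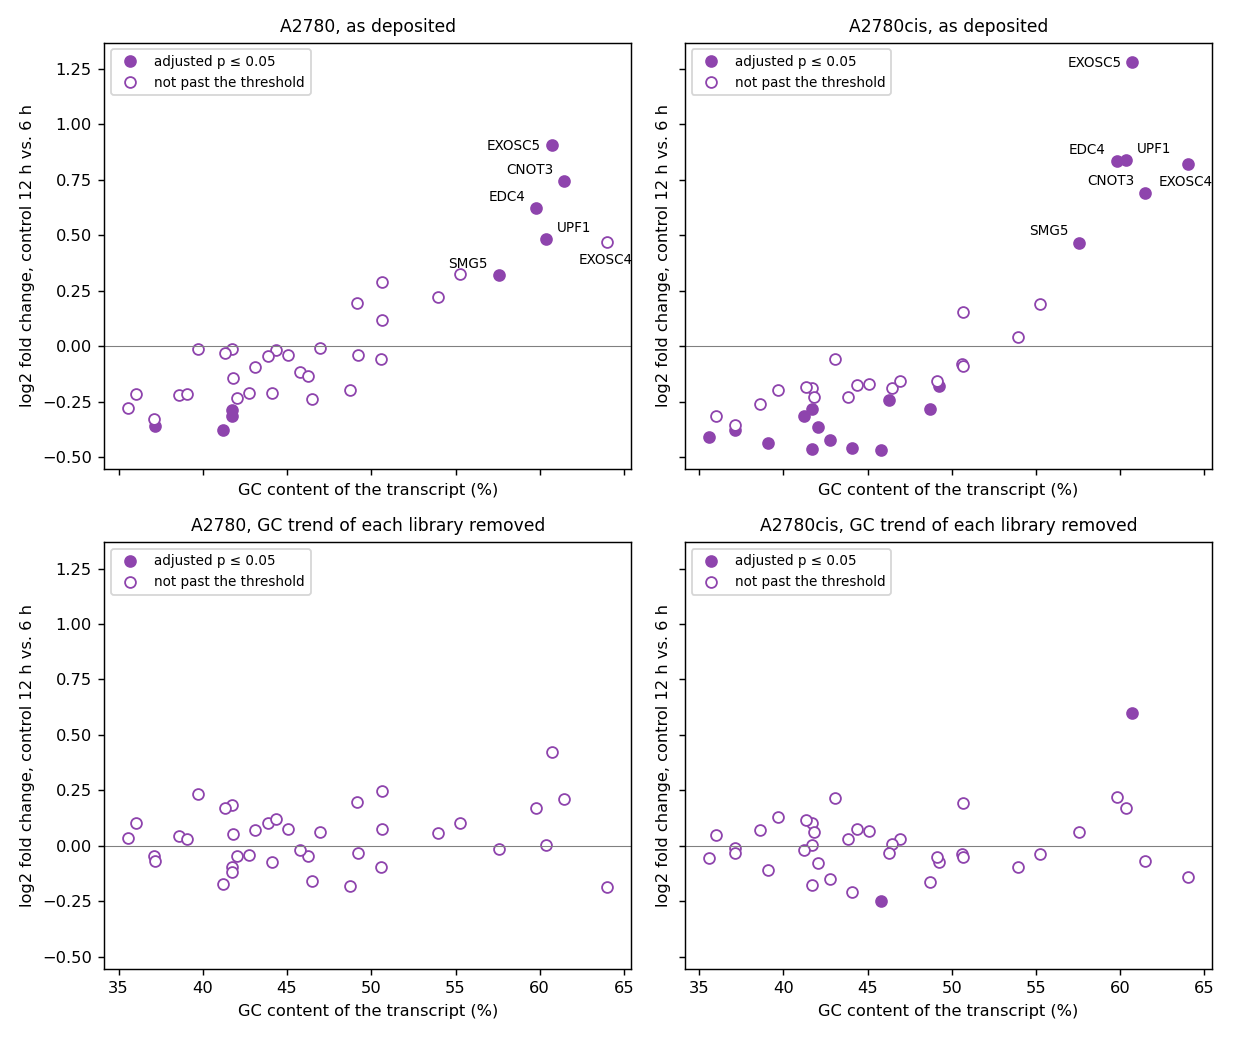
Log2 fold change of the 38 genes between untreated cells of 12 h and 6 h against the GC content of the canonical transcript in percent, for A2780 (left) and A2780cis (right), as deposited (top) and with the GC trend of each library removed (bottom). The GC-rich genes from SMG5 to EXOSC4 stand at the upper right of the top panels, and filled points, past the threshold, number 9 and 19 at the top and 0 and 2 at the bottom.

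The untreated lines differed in some of the decay genes, though no more often than in all genes. The shares were 42.1% against 47.9% at 6 h and 50% against 52.9% at 12 h. PAN3 and EXOSC8 were lower in A2780cis by more than any other member, and DIS3, DCP2 and DCP1B followed, while EXOSC4, DIS3L, CNOT6L, CNOT10 and EXOSC2 were higher at both times. At 6 h 16 members passed, 6 higher and 10 lower in A2780cis, against 47.9% of all genes (25.0% higher and 22.9% lower). At 12 h 19 passed, 5 higher and 14 lower, against 52.9% (25.4% higher and 27.5% lower). Of the higher genes at 12 h, CNOT10 lost its call without replicate 1 or 3 of the A2780 controls or replicate 1 of the A2780cis controls (0.17 to 0.25). EXOSC2 lost it without replicate 2 of the A2780 or replicate 1 of the A2780cis controls (0.17 to 0.20), and CNOT6L without replicate 2 of the A2780cis controls (0.32). With library size alone the split at 6 h was 5 higher and 14 lower. The medians were 0.00 and -0.13.

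PAN3 lay at 45.1, 41.3 and 42.4 CPM in A2780 controls of 6 h and at 16.7, 17.7 and 15.1 CPM in A2780cis, with log2 FC of -1.38 (SE 0.11, adjusted p = 4.42e-11) at 6 h and -1.47 (SE 0.11, adjusted p = 5.85e-12) at 12 h. EXOSC8 lay at 142, 139 and 128 CPM against 48.5, 50.8 and 64.0 CPM at 6 h, and at 121, 124 and 108 CPM against 49.1, 44.1 and 43.3 CPM at 12 h, with log2 FC of -1.32 and -1.37 (SE 0.12 in both). No library of one line reached those of the other. DCP2 lay at 131, 134 and 122 CPM against 67.8, 60.5 and 66.9 CPM at 6 h, -0.99 (SE 0.11). DCP1B lay at 15.1, 14.8 and 14.4 CPM against 7.49, 7.32 and 8.83 CPM, -0.90 at 6 h (SE 0.12) and -1.11 at 12 h (SE 0.11). After treatment DCP1B in A2780cis, at 17.6 to 18.4 CPM at 12 h, stood just above the untreated A2780 level.

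PAN3, EXOSC8 and DIS3 are the 3 members on chromosome 13, a feature noticed after their values were seen. PAN3 lies at chr13:28138506-28295335, EXOSC8 at chr13:36998816-37025881 and DIS3 at chr13:72752169-72782096 (GENCODE 44, GRCh38). The 213 protein-coding genes tested on chromosome 13 had a median log2 FC of -0.78 at 6 h and -0.90 at 12 h in A2780cis against A2780, where the median over the 13881 protein-coding genes was 0.05 and 0.01. Of these 213 genes 76.1% were called lower at 6 h and 79.8% at 12 h, against 24.1% and 28.8% over all. EXOSC4, the member with the highest value at both times (0.63 and 0.98), lies on chromosome 8, whose 465 protein-coding genes had medians of 0.38 and 0.36. The call of EXOSC4 at 6 h was lost without replicate 1 of the A2780 controls or replicate 1 or 3 of the A2780cis controls (0.39 to 0.62). CNOT7 on the same chromosome passed at neither time. EXOSC8 overlaps SUPT20H on the other strand at 16.3% of its exonic bases, and DIS3 overlaps BORA at 10.9%.

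**Figure D5:**
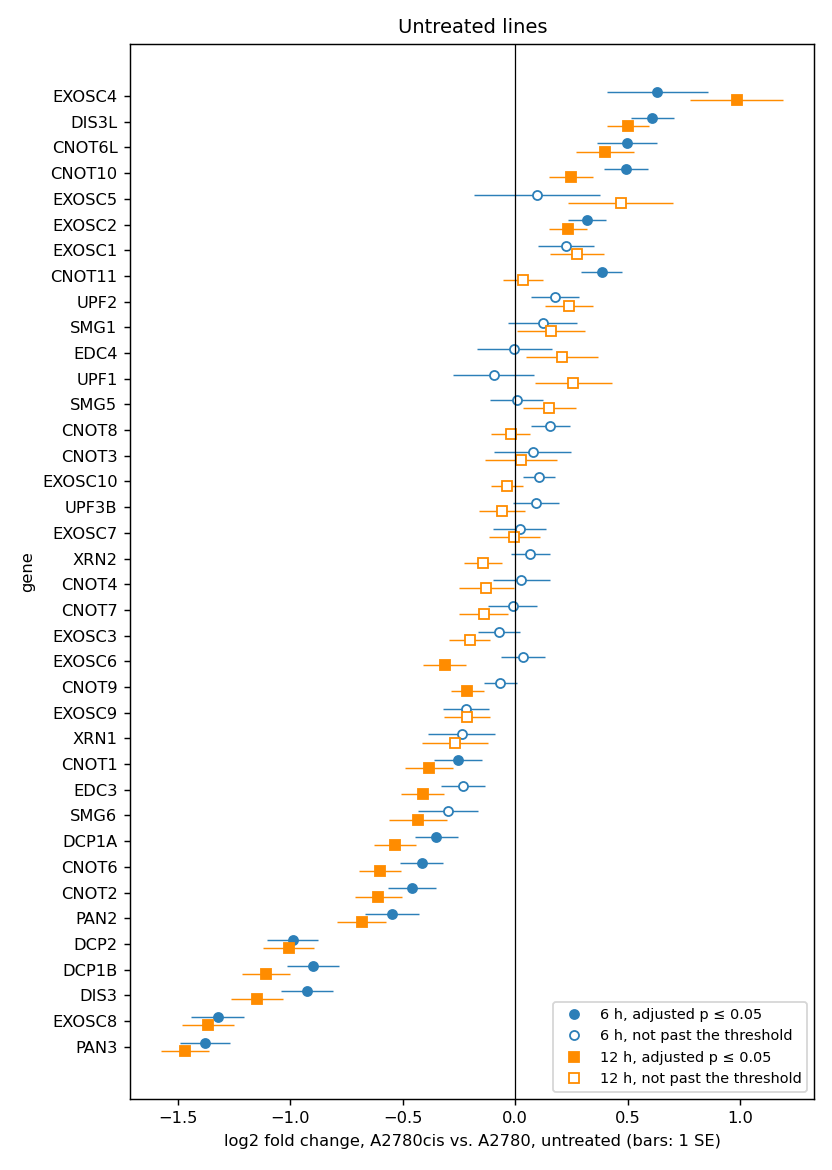
Log2 fold change of the 38 genes in untreated A2780cis against untreated A2780 cells at 6 h (circles) and 12 h (squares), ordered by their mean, with bars of 1 SE and filled symbols for an adjusted p of at most 0.05. PAN3, EXOSC8, DIS3, DCP1B and DCP2 lie at the low end between -1.47 and -0.90, and EXOSC4 at the high end.

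Genes that work with the 38 were looked at from 5 lists of cofactors. Each count below is to be read beside the share of all genes at 12 h, 28.6% higher and 26.1% lower in A2780, and 31.0% higher and 28.9% lower in A2780cis. Over protein-coding genes alone the shares were 27.8% higher and 30.8% lower in A2780, and 27.9% and 34.7% in A2780cis. Of 16 exosome cofactors 1 rose and 9 fell in A2780 at 12 h, and 0 rose and 10 fell in A2780cis, with medians of -0.32 and -0.60. That is 62.5% of the list in both lines, against 54.8% and 59.9% of all genes. ZCCHC7, an RNA-binding subunit of the nuclear polyadenylation complex, fell from 44.4, 39.7 and 34.2 CPM to 20.6, 16.2 and 16.8 CPM in A2780 and from 58.9, 52.4 and 47.3 CPM to 21.0, 20.3 and 20.9 CPM in A2780cis. MTREX, the helicase that feeds RNA to the nuclear exosome, changed by -0.93 and -1.17, and TENT4A, a poly(A) polymerase of the same pathway, by -0.48 and -0.92. All 3 passed in both lines.

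The partners of deadenylation moved in both directions, with 6 of 13 higher and 4 lower in each line, 76.9% of the list. BTG2, an antiproliferative protein that binds the CCR4-NOT nucleases, rose from 25.5, 25.0 and 29.2 CPM to 385, 390 and 382 CPM in A2780 and from 20.6, 20.5 and 23.6 CPM to 213, 194 and 199 CPM in A2780cis, log2 FC of 3.86 and 3.23 (SE 0.12 in both). The related TOB1 rose by 1.53 and 1.70. PABPC4, a poly(A)-binding protein, fell by 1.05 and 1.08. BTG2 and TOB1 were already higher at 6 h, at 3.08 and 2.81 for BTG2 and 1.30 and 1.27 for TOB1.

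Of 18 decapping partners 2 rose and 9 fell in A2780, and 6 rose and 10 fell in A2780cis, 61.1% and 88.9% of the list. LSM14A, an RNA-binding protein of P-bodies, changed by -0.71 and -1.30, the Nudix hydrolase NUDT3 by -0.76 and -0.86, and the co-activator PNRC1 by 0.87 and 1.38. Of 14 partners of nonsense-mediated decay 1 rose and 5 fell in A2780, and 0 rose and 9 fell in A2780cis, 42.9% and 64.3% of the list, where all genes stood at 54.8% and 59.9%. GSPT1, a translation release factor, changed by -1.34 and -1.27, and NBAS by -1.26 and -1.47. SMG9, a subunit of the SMG1 kinase complex, was at 31.6, 26.3 and 34.6 CPM against 31.4, 37.1 and 36.4 CPM in A2780 and fell from 24.4, 28.4 and 30.4 CPM to 9.59, 11.8 and 10.2 CPM in A2780cis. The difference between the lines for SMG9 was -1.57 (SE 0.19, adjusted p = 2.68e-06).

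Among 17 RNA-binding and microRNA-linked factors that target messengers for decay, 4 rose and 10 fell in A2780, and 2 rose and 12 fell in A2780cis (82.4% of the list in both), with medians of -0.54 and -0.91. PUM2, a repressor that binds the 3′ ends of messengers, fell in both lines (-1.10 and -1.40), and so did STAU1 (-0.54 and -1.05), a binder of double-stranded RNA. STAU1 lay at 80.0, 79.4 and 85.6 CPM in A2780 controls and at 60.0, 56.8 and 52.0 CPM after treatment, and in A2780cis at 76.8, 77.4 and 83.5 CPM against 34.8 to 41.7 CPM. Its groups were separate in both lines.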

How the data were processed

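Total RNA of A2780 and A2780cis cells was sequenced on a NextSeq500 after ribosomal depletion with a stranded kit. According to the methods and the submitters' processing notes, the authors trimmed reads with Trimmomatic, aligned them with STAR 2.5.2b to GRCh38.p7 and counted reads on exons with featureCounts, sharing reads with several matches. The deposited values are therefore expected counts per gene, with 9.50% to 12.8% of entries not whole. The strand setting is not given in the sources used here.

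Counts were rounded to whole numbers and matched by identifier to GENCODE 44 (56993 of 63299 rows), which gave symbols, positions, exons, transcript length and GC content. Genes were filtered with filterByExpr (minimum count 10, minimum total 15), which left 20240, scaled by TMM and fitted over all 24 libraries with 1 coefficient per group (16 residual degrees of freedom) in edgeR 4.0.16 (limma 3.58.1, R 4.3.3). Groups were compared by the two-sided quasi-likelihood F-test, with Benjamini-Hochberg adjustment over all genes tested and a threshold of 0.05. Library totals ran from 11077368 to 21901406, and the replicates' Spearman correlations from 0.988 to 0.996. On simulated data for the A2780 comparison at 12 h (19684 genes), 196 of 200 genes changed 2-fold were called and 21 of 19484 unchanged ones. The simulation held no GC trend between the compared groups. It also changed far fewer genes than the 54.8% called in the data, so its rate of false calls need not hold there. The figures were drawn with matplotlib 3.10.9 in Python 3.11.15.

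The 38 genes and the 5 lists of cofactors were chosen with earlier results of these data known. Values per library are printed, per role, for the 2 members with the largest mean absolute log2 fold change at 12 h, and for members among the 3 with the smallest p in the difference between lines or between untreated lines. Paralog pairs are set side by side, and of each cofactor list the 3 genes with the smallest p at 12 h in either line are named, except 1 gene that is not reported here. Other members with values per library were added after their values were seen.

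The alternatives were library size alone, DESeq2 size factors in edgeR, the DESeq2 1.42.0 Wald test, counts as deposited without rounding, omission of the filter, lncRNA and rRNA genes left out, the compared samples alone, the replicate number as a block, and each library left out. A fit with the trend on transcript GC content removed from each library (19889 genes) was added after seeing the data. Promoter sequences came from RefSeq (GRCh38.p14), where EXOSC1, EXOSC4, CNOT7 and CNOT1 had no entry.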

Additional observations from a re-analysis of the deposited data

Results flagged for a closer look

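The response to 12 h of 5-FdU-ECyd differed between the lines by edgeR's test of the difference itself for 10 of the 38 genes. That is 26.3% of them, against 23.7% of all genes. The difference in log2 FC, A2780cis minus A2780, was -0.80 for UPF2, -0.74 for UPF3B, -0.64 for CNOT6L, -0.64 for SMG1, -0.53 for CNOT4, -0.53 for SMG5, -0.51 for CNOT10 and -0.41 for EXOSC9. It was 0.49 for PAN2 and 0.44 for DCP1B. Whichever library was left out, 3 of the 10 calls held (UPF2, UPF3B and CNOT10). With library size alone 0 genes were higher and 15 lower.

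The response differed between 12 h and 6 h in A2780 for 11 of the 38 genes (28.9%), against 23.7% of all genes. The difference in log2 FC, 12 h minus 6 h, was -1.25 for EXOSC5, -1.24 for EXOSC4, -0.95 for CNOT1, -0.89 for EDC4, -0.68 for EXOSC7, -0.57 for XRN2, -0.41 for DIS3L and -0.29 for EXOSC10. It was 0.65 for DCP2, 0.56 for UPF3B and 0.45 for PAN3.

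In A2780cis the same difference passed for 14 genes. It was -1.13 for EDC4, -1.06 for CNOT1, -0.999 for SMG1, -0.97 for XRN1, -0.91 for UPF1, -0.81 for XRN2, -0.70 for CNOT3, -0.57 for EXOSC10, -0.54 for SMG5, -0.51 for DIS3, -0.43 for CNOT7 and -0.43 for DCP1A. It was 0.53 for DCP1B and 0.51 for EXOSC6. These tests share the 6 h controls whose GC trend is given above, and all of these calls were made with that trend removed as well. With each library left out in turn, 7 of the 11 calls in A2780 and 7 of the 14 in A2780cis held every time. Over the 12 such fits EXOSC10 in A2780 lost its call in 10, CNOT7 in A2780cis in 9 and CNOT3 in A2780cis in 6.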

How the results depend on the processing

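Apart from the fits without 1 library, the planned and added alternatives kept direction and side of the threshold for 1785 values of named members. Of the other values, 130 lost the call, 25 gained one and 22 reversed. With each library left out in turn 1290 kept both, 216 lost the call, 1 gained one and 11 reversed. The cause of these changes was not tested, beyond the fewer samples of the fits that leave libraries out. With library size alone the median log2 FC of the 38 genes was 0.011 (A2780, 12 h), -0.088 (A2780, 6 h), -0.070 (A2780cis, 6 h), -0.33 (difference between the lines, 12 h), 0.035 (12 h minus 6 h response, A2780), -0.10 (untreated lines, 6 h), and 0.018 and -0.018 (controls of 12 h against 6 h, A2780 and A2780cis), and 12 genes passed in the last of these. The same setting reversed, among genes not past the threshold, CNOT6 (0.10), CNOT10 (0.078), CNOT11 (0.12), PAN2 (0.0056), PAN3 (0.20), UPF2 (0.11) and SMG6 (0.0155) in A2780 at 12 h, SMG6 (0.0089) in A2780 at 6 h, and EXOSC7 (0.026), DCP1A (0.055) and DCP2 (0.021) in A2780cis at 6 h. With no filter CNOT8 was at -0.0018, and without lncRNA and rRNA genes PAN3 at 0.0057, both in A2780 at 12 h. In fits of the compared samples alone the median between untreated lines at 6 h was -0.089, and 14 and 12 genes passed between controls of 12 h and 6 h in A2780 and A2780cis, where DESeq2 called 14 in A2780.

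With the GC trend removed the medians were -0.29 (A2780, 12 h), -0.21 (12 h minus 6 h response, A2780), -0.018 (untreated lines, 12 h), and 0.039 and -0.0135 (controls of 12 h against 6 h, A2780 and A2780cis), where 0 and 2 genes passed, and 16 passed in the difference between the lines at 12 h. It reversed EXOSC4 (-0.24) and CNOT7 (0.0165) in A2780 at 6 h, EXOSC4 (-0.19), DCP1A (0.052) and DCP2 (0.039) in A2780cis at 6 h, and between controls SMG5 (-0.015) in A2780 and EXOSC4 (-0.14), EXOSC9 (0.0029) and CNOT3 (-0.068) in A2780cis, of which the last 4 had passed as deposited.

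With 1 library left out the counts ran from 8 to 20 (A2780cis, 6 h), 5 to 12 (difference between the lines, 12 h), 7 to 11 (12 h minus 6 h response, A2780) and 1 to 12 (controls, A2780). The medians ran from -0.22 to -0.12 (A2780, 6 h), -0.068 to 0.0020 (untreated lines, 6 h) and -0.098 to -0.0497 (controls, A2780). Values of genes not past the threshold that changed sign ran from -0.0865 to 0.076 (CNOT8) and -0.079 to 0.0045 (PAN3) in A2780 at 12 h, -0.053 to 0.11 (CNOT8) and -0.023 to 0.21 (DCP2) in A2780cis at 12 h, -0.15 to 0.032 (SMG6) in A2780 at 6 h, and in A2780cis at 6 h -0.047 to 0.42 (EXOSC4), -0.21 to 0.028 (EXOSC7), -0.13 to 0.066 (DCP1A) and -0.13 to 0.0081 (DCP2).

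Deviations of same-numbered libraries correlated at -0.29 to 0.44, and those of differently numbered ones at -0.49 to 0.36. Between same-numbered control and treated libraries of 12 h all values were positive in A2780cis (0.017 to 0.31) and negative in A2780 (-0.20 to -0.035). The numbers were not taken to pair the libraries. With the replicate number as a block 20 and 29 genes passed at 12 h in A2780 and A2780cis, 18 and 20 at 6 h, and 10 and 0 in the difference between the lines at 12 h and 6 h. In the same block fit 12 and 15 passed in the 12 h minus 6 h response, 16 and 20 between untreated lines at 6 h and 12 h, and 13 and 20 between controls of 12 h and 6 h. The depth put 49 counts behind the lowest value of a member, EXOSC5, and levels from it carry the widest error.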
